A study of Danio rerio with 8 samples.

Results

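The genes described here encode the zinc-dependent metalloproteases of the matrixin and adamalysin families and the tissue inhibitors that hold them in check. They were taken by name: every identifier whose symbol begins with *mmp*, *adam*, *adamts*, or *timp* followed by a number, which gave 61 of the 32057 identifiers in the data. These were 24 matrix metalloproteinases (MMPs), 15 ADAMs, 17 ADAMTS proteases, and 5 TIMPs. Of the 61, 59 were listed at both stages, while *adamts13* and *mmp19* were listed at 2.5 dpf only and were close to 0 there. A level is given in FPKM, the fragments of a gene divided by transcript length and by the mapped fragments of the library, so that levels can be set side by side between genes. A gene was counted as expressed at a stage when the 4 libraries there averaged 0.5 FPKM or more, which 29 of the 61 genes did at 2 dpf and 37 at 2.5 dpf, all 29 among the 37. The other 24 stayed under the limit at both stages and reached at most 0.45 FPKM as a stage mean.

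MMPs are secreted or membrane-anchored enzymes that cut collagens, gelatin, and other matrix proteins with the help of a catalytic zinc ion. They are made as inactive precursors, and TIMPs block the active enzymes. ADAMs are mostly membrane proteases that release the outer part of receptors and ligands such as Notch and tumor necrosis factor, while ADAMTS proteases are secreted and cut proteoglycans or trim procollagens. Migrating and condensing neural crest cells (NCCs) move through a matrix that such enzymes remodel, and leukocytes carry their own set, among them gelatinase B and collagenase-3.

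RNA was measured by SMART-seq in *sox10*:kikGR+ cells, sorted from zebrafish embryos in which a *sox10* transgene drives the fluorescent protein kikGR in NCCs. There were 4 groups of 2 libraries: control and *slc30a1* mutant cells at 2 dpf, and the same genotypes at 2.5 dpf. In the study, *slc30a1* mutants are CRISPR/Cas9 knockouts of both *slc30a1a* and *slc30a1b*, which encode zinc exporters of the cell membrane. Such mutants were raised from parents already homozygous for the *slc30a1b* lesion and heterozygous for that of *slc30a1a*, and the exact genotype of the sequenced controls is not given in the sources used here. Neither is the number of embryos in a library, so that a p-value measures the spread between these libraries, which may be technical. Each stage is a table of its own, and stage and table therefore cannot be told apart.

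*slc30a1a* was at 12.12 and 11.74 FPKM in control and at 5.96 and 7.06 FPKM in mutant libraries at 2 dpf, and at 8.56 and 11.22 against 5.44 and 4.98 FPKM at 2.5 dpf. The mutants were lower at each stage, by a log2 of −0.79 (SE 0.12, adjusted p = 0.00754 over both stages). *slc30a1b* was at most 0.14 FPKM in every library. The sorted cells held the neural crest gene *sox10* at 47.59 to 156.01 FPKM, while *crestin* reached only 0.51 FPKM. They also held leukocyte RNA: *lyz*, the lysozyme of myeloid cells, was between 9037.33 and 39655.51 FPKM. The 12 leukocyte markers summed to 41838.17 and 43210.01 FPKM in the controls and to 15990.00 and 25620.91 FPKM in the mutants at 2 dpf, with 9 of 12 wholly lower in the mutants. At 2.5 dpf the sums overlapped, at 15585.36 and 10729.63 against 13912.18 and 13439.23 FPKM, with 2 of 12 markers wholly higher and 3 wholly lower in the mutants. Most of each sum was *lyz*. Without it the other 11 summed to 3311.94 and 3554.5 against 1423.52 and 2536.15 FPKM at 2 dpf. At 2.5 dpf these sums overlapped, at 2507.55 and 1692.3 against 2102.29 and 1414.14 FPKM. In sorted populations like these, fewer cells of a type and less RNA per cell cannot be told apart.

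The MMPs spanned the widest range of levels. The highest were the collagenase-3 gene *mmp13a*, listed under 2 identifiers, with means of 225.66 FPKM (ENSDARG00000012395) and 93.66 FPKM (ENSDARG00000114451) over the 8 libraries, followed by *mmp9* at 37.87 and *mmp2* at 27.24 FPKM. How the reads of the *mmp13a* copies were divided between their identifiers is uncertain. The ratio of ENSDARG00000114451 to ENSDARG00000012395 was 0.609 and 0.608 in controls and 0.451 and 0.417 in mutants at 2 dpf. At 2.5 dpf it differed between replicates, at 0.223 and 0.49 in controls and 0.196 and 0.495 in mutants. The highest ADAMs were *adam8a* at 14.95, *adam10b* at 12.33, and *adam10a* at 4.95 FPKM, and the highest ADAMTS genes were *adamts3* at 3.91, *adamts1* at 2.85, and *adamts15a* at 2.52 FPKM. Among the inhibitors *timp2a* led with 9.31 FPKM, *timp2b* followed with 2.69 FPKM, and the 3 *timp4* genes stayed near 0. The neighbours *adamts3*, *adamts1*, and *adamts15a* overlapped in their library values, as did *mmp9* and *mmp2*.

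**Figure D1:**
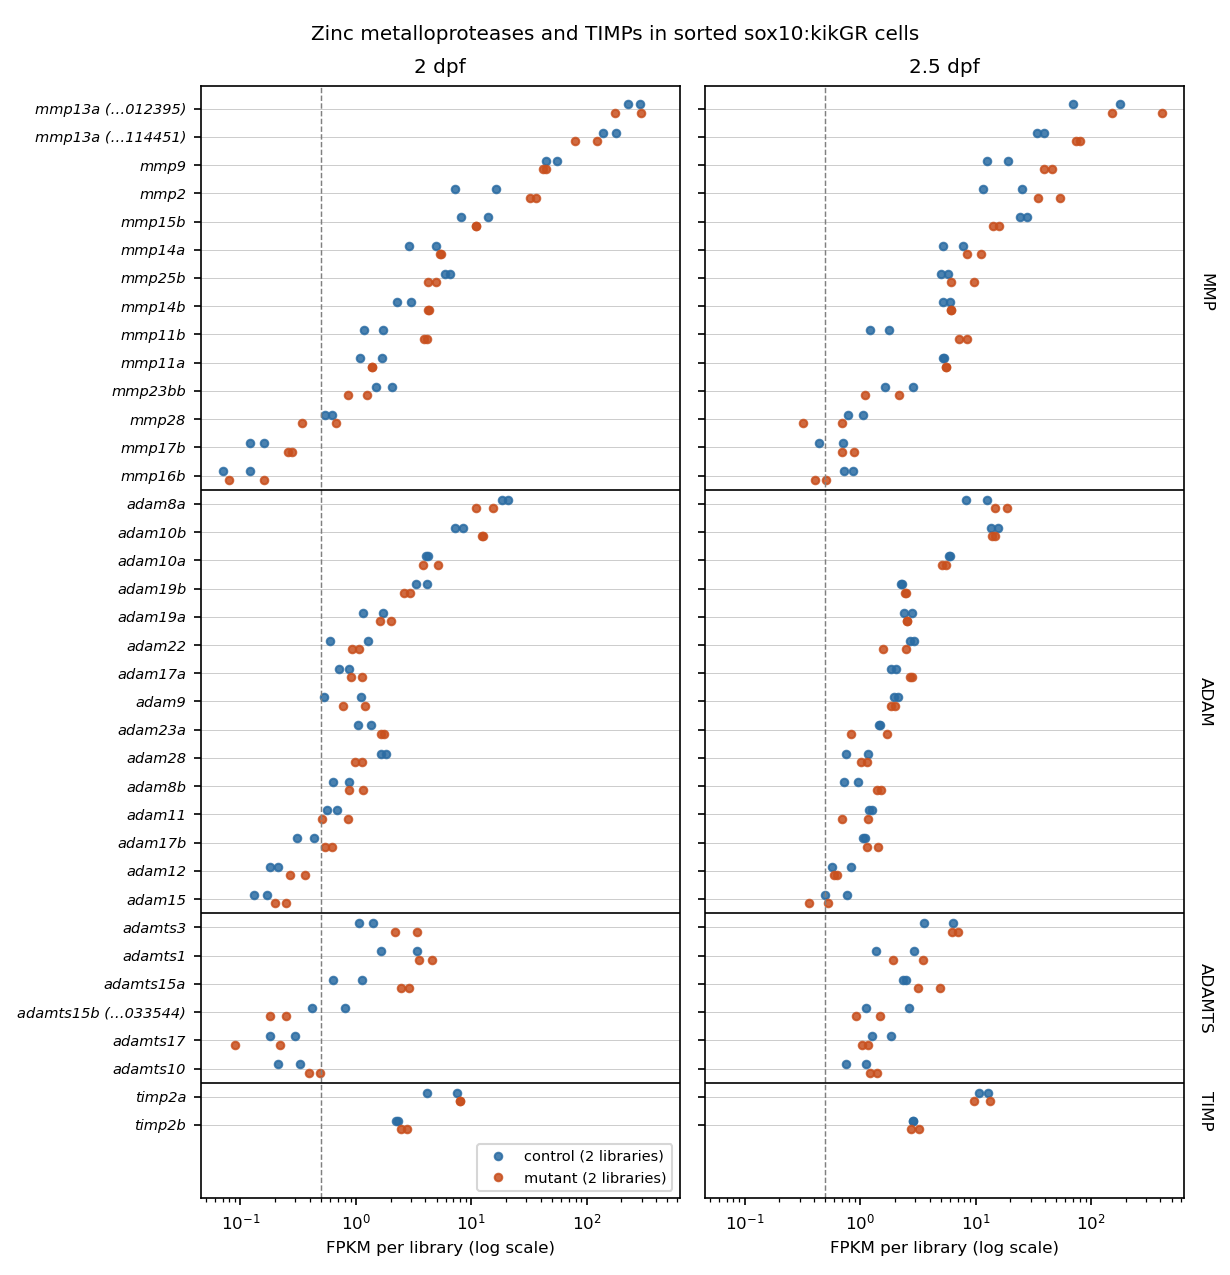
FPKM of the 37 genes that reached a mean of 0.5 FPKM (dashed line) at either stage, on a log axis, with control libraries in blue and mutant libraries in orange (2 per group) and lines between the 4 classes. The *mmp13a* identifiers, *mmp9*, and *mmp2* stand highest, and *mmp11b* and *mmp2* have all mutant points to the right of all control points at both stages.

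To learn which of these genes differed between mutant and control cells, the genotypes were compared within each stage and over both stages with limma on log2(FPKM + 1), with p-values adjusted over all genes tested and 0.05 as the threshold. A fold change is therefore on the log2(FPKM + 1) scale, which understates the change of low genes. Over both stages, *mmp11b*, *mmp2*, and *adamts15a* were higher in the mutants, and no member was lower. That is 3 of the 33 members tested, 9.09%, against 9.01% of all 16703 genes (7.02% higher and 1.99% lower), so that these families were called about as often as other genes. Of all genes 1173 were higher and 332 lower, against 692 and 554 after median-ratio rescaling of the libraries, and the same count of 3 members was called higher after it. An unadjusted p under 0.05 was found for 8 members, 24.2%, and for 25.7% of all genes. At 2 dpf *mmp11b* alone passed the threshold, 1 of 29 members, where 3.52% of 15453 genes were called, 2.52% as higher. The 390 higher and 154 lower genes became 215 and 236 after rescaling. At 2.5 dpf limma called none of 37 members and 0.0% of 17379 genes, although 6 members and 2128 genes, 12.2%, had an unadjusted p under 0.05. At 2 dpf 9 members had one, 31.0% of the members and 24.6% of all genes.

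*mmp11b* encodes stromelysin-3, which is activated by furin-type convertases inside the cell and is secreted in active form. At 2 dpf it was at 1.18 and 1.71 FPKM in control and at 3.90 and 4.13 FPKM in mutant libraries, and at 2.5 dpf at 1.77 and 1.23 FPKM against 7.16 and 8.48 FPKM. Every mutant library lay above every control library. The mean was 2.78 times that of controls at 2 dpf and 5.21 times at 2.5 dpf. The log2 fold change was 1.04 at 2 dpf (SE 0.19, adjusted p = 0.0408), 1.82 at 2.5 dpf (SE 0.21, adjusted p = 0.0752), and 1.43 over both stages (SE 0.19, adjusted p = 0.00323). The median of all genes was itself shifted by 0.18 at 2 dpf, and relative to it *mmp11b* was higher by 0.87. The call at 2 dpf was lost after rescaling of the libraries and whenever any of the 4 libraries was left out (adjusted p from 0.127 to 0.188), whereas the call over both stages remained under all 15 alternatives. At 2.5 dpf only 2 of 12 alternatives called *mmp11b*, among them a single fit of all 8 libraries (adjusted p = 0.00956).

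Its paralog *mmp11a* did not follow. It was at 1.09 and 1.67 FPKM in controls and at 1.37 and 1.38 FPKM in mutants at 2 dpf, and at 5.30 and 5.24 against 5.50 and 5.54 FPKM at 2.5 dpf. The log2 fold change between genotypes was 0.01 (SE 0.18) at 2 dpf and 0.06 (SE 0.18) at 2.5 dpf. The ratio of *mmp11b* to *mmp11a* inside a library was 1.02 to 1.08 in controls and 2.85 to 2.99 in mutants at 2 dpf, and 0.235 to 0.334 against 1.3 to 1.53 at 2.5 dpf. This ratio does not depend on the scaling of a library. It was computed after the values had been seen and is given without a test.

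*mmp2* encodes gelatinase A, which degrades gelatin and type IV collagen. At 2 dpf it was at 7.27 and 16.36 FPKM in control and at 36.71 and 32.42 FPKM in mutant libraries, and at 2.5 dpf at 11.56 and 25.17 against 34.62 and 53.78 FPKM. All 4 mutant libraries lay above all 4 control libraries, which held for 2 of 33 members and for 7.33% of all genes. The controls differed from each other by more than a factor of 2 at each stage. The log2 fold change was 1.57 at 2 dpf (SE 0.34, adjusted p = 0.0647), 1.28 at 2.5 dpf (SE 0.40, adjusted p = 0.31), and 1.43 over both stages (SE 0.29, adjusted p = 0.0207). The last call was lost without control replicate 1 of either stage, without either mutant library of 2 dpf, and without mutant replicate 2 of 2.5 dpf, with adjusted p of 0.0516 to 0.0714.

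None of the genes for the activation of gelatinase A passed the threshold between the genotypes. Its precursor is bound at the cell surface by MT1-MMP together with TIMP2 and is cut there. *mmp14a*, which encodes MT1-MMP, was at 2.88 and 4.94 FPKM in controls and at 5.42 and 5.38 FPKM in mutants at 2 dpf, and at 5.21 and 7.84 against 8.36 and 11.15 FPKM at 2.5 dpf. Mutants were above controls at each stage, and the log2 fold change of 0.47 over both stages did not pass the threshold (SE 0.18, adjusted p = 0.141). *mmp14b*, its paralog, was at 2.27 and 3.0 against 4.25 and 4.31 FPKM at 2 dpf and at 5.98 and 5.21 against 6.09 and 6.15 FPKM at 2.5 dpf (log2 0.33, SE 0.14, adjusted p = 0.172).

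The inhibitor gene *timp2a* was at 4.17 and 7.52 FPKM in control and at 8.06 and 7.95 FPKM in mutant libraries at 2 dpf, and at 10.70 and 12.95 against 9.69 and 13.41 FPKM at 2.5 dpf. Mutants were higher at 2 dpf and the genotypes overlapped at 2.5 dpf, with log2 fold changes of 0.44 (SE 0.26, adjusted p = 0.346) and −0.04 (SE 0.23, adjusted p = 0.96). *timp2b* was at 2.21 and 2.31 against 2.47 and 2.79 FPKM at 2 dpf, and at 2.88 and 2.89 against 3.21 and 2.76 FPKM at 2.5 dpf, the same order with smaller differences (log2 0.15, SE 0.17, and 0.03, SE 0.19). *timp4.3* was listed at 0 in both controls of 2 dpf and was highest at 0.61 FPKM in a control of 2.5 dpf, and it was too low to be tested, like *timp4.1* and *timp4.2*. Neither of the 2 inhibitors tested was called at any stage. In the same libraries *mmp2* was 1.08 to 2.18 times as abundant as *timp2a* in the 4 controls and 3.57 to 4.55 times in the 4 mutants, a ratio also chosen after the values had been seen and not tested.

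The sum of 9 endothelial markers was also higher in the mutants, mostly through *egfl7*. The markers summed to 12.25 and 16.51 FPKM in controls and to 19.71 and 22.29 FPKM in mutants at 2 dpf, and to 12.39 and 15.15 against 18.64 and 28.93 FPKM at 2.5 dpf. *egfl7* alone was at 5.90 and 9.21 against 12.59 and 13.19 FPKM and then at 6.75 and 7.69 against 10.24 and 19.96 FPKM. Of the 9 markers 4 were wholly higher and 3 wholly lower in the mutants at 2 dpf, and 4 were wholly higher at 2.5 dpf. Only 5 were high enough to be tested at 2 dpf and 4 at 2.5 dpf, and none of these was called. The defining genes *kdrl*, *cdh5*, and *vwf* were at most 0.85, 0.84, and 0.04 FPKM. Of the 8 neural crest markers, 4 were wholly higher and 1 wholly lower in the mutants at 2 dpf. At 2.5 dpf 1 was wholly higher and 3 wholly lower, the latter being *sox10*, *sox9b*, and *crestin*. *sox10* was at 121.61 and 156.01 against 110.62 and 85.45 FPKM there. *sox9b* was wholly lower at both stages. It was at 27.47 and 38.8 against 22.79 and 24.72 FPKM, and then at 32.51 and 59.21 against 24.77 and 25.46 FPKM. The neural crest marker wholly higher at both stages was *twist1a*. It was at 127.25 and 225.59 against 270.29 and 279.16 FPKM, and then at 94.93 and 153.45 against 204.02 and 238.38 FPKM. The part of these cells in the result was not tested.

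**Figure D2:**
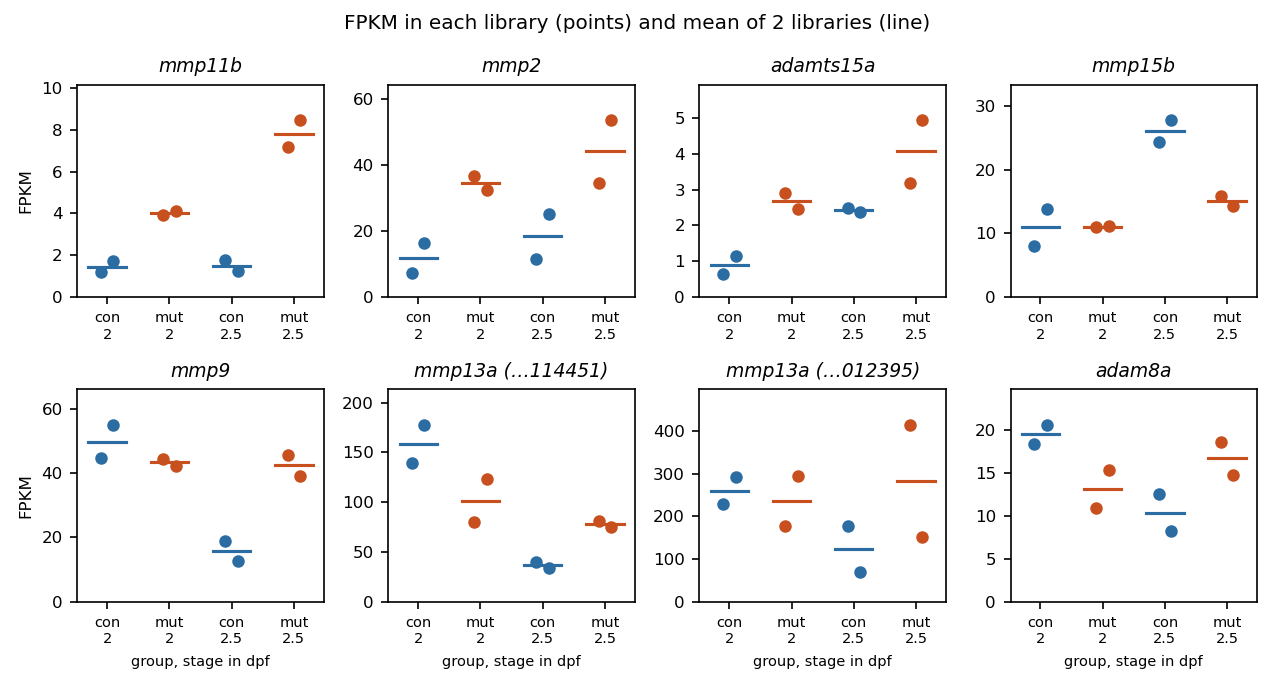
FPKM of 8 genes in each library (points) with the mean of 2 libraries (line), for control (con, blue) and mutant (mut, orange) cells at 2 and 2.5 dpf, each axis starting at 0. *mmp11b*, *mmp2*, and *adamts15a* are higher in mutants at both stages, while in *mmp9*, *mmp13a* (ENSDARG00000114451), and *adam8a* the controls lie below the mutants at 2.5 dpf only.

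Of the ADAMTS proteases, 3 of 17 were tested at 2 dpf and 6 at 2.5 dpf and over both stages. *adamts15a*, a protease of the group that cuts the proteoglycans versican and aggrecan, was at 0.64 and 1.14 FPKM in controls and at 2.91 and 2.46 FPKM in mutants at 2 dpf, and at 2.49 and 2.37 against 3.19 and 4.96 FPKM at 2.5 dpf. Mutants were higher at each stage, with a log2 fold change of 0.97 at 2 dpf (SE 0.20, adjusted p = 0.0534), 0.54 at 2.5 dpf (SE 0.24, adjusted p = 0.444), and 0.76 over both stages (SE 0.17, adjusted p = 0.026). That call was lost without either control or either mutant library of 2 dpf and without mutant replicate 2 of 2.5 dpf, with adjusted p of 0.0511 to 0.0868. The 2 controls of 2.5 dpf were close to the mutants of 2 dpf.

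*adamts3*, a procollagen N-propeptidase, showed a related course without passing the threshold. It was at 1.07 and 1.42 FPKM in control and at 3.37 and 2.17 FPKM in mutant libraries at 2 dpf, and at 3.56 and 6.40 against 6.24 and 7.07 FPKM at 2.5 dpf, where the groups overlapped. The log2 fold change was 0.73 at 2 dpf (SE 0.21, adjusted p = 0.11) and 0.40 at 2.5 dpf (SE 0.28, adjusted p = 0.644). *adamts1*, another proteoglycanase, was at 1.66 and 3.36 against 4.57 and 3.51 FPKM and then at 1.38 and 2.92 against 1.91 and 3.52 FPKM. *adamts15b* (ENSDARG00000033544) lay on the other side, at 0.42 and 0.81 against 0.18 and 0.25 FPKM at 2 dpf and at 2.66 and 1.13 against 1.49 and 0.93 FPKM at 2.5 dpf (log2 −0.37 over both stages, SE 0.18, adjusted p = 0.232). A second identifier of that name, called ADAMTS8 in another list of gene names, stayed under the limit.

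Of the 2 *mmp13a* identifiers, ENSDARG00000114451 behaved otherwise, as did the second gelatinase gene and *adam8a*: mutants were lower than controls at 2 dpf and higher at 2.5 dpf. *mmp9* encodes gelatinase B, an enzyme of neutrophils and macrophages. At 2 dpf it was at 44.62 and 55.10 FPKM in controls and at 44.57 and 42.13 FPKM in mutants, a gap of 0.05 FPKM between the nearest libraries, and at 2.5 dpf at 18.97 and 12.63 against 45.70 and 39.26 FPKM. The mutant libraries of 2.5 dpf were close to the level of 2 dpf, and the controls were lower than there. The log2 fold change was −0.19 at 2 dpf (SE 0.18, adjusted p = 0.547) and 1.39 at 2.5 dpf (SE 0.24, adjusted p = 0.138). At 2.5 dpf only 2 of 12 alternatives called *mmp9*, among them a single fit of all 8 libraries (adjusted p = 0.0296).

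*mmp13a* (ENSDARG00000114451) was at 139.36 and 177.69 FPKM in control and at 79.87 and 123.10 FPKM in mutant libraries at 2 dpf, and at 39.45 and 34.06 against 81.10 and 74.67 FPKM at 2.5 dpf. The log2 fold change was −0.66 at 2 dpf (SE 0.25, adjusted p = 0.175) and 1.07 at 2.5 dpf (SE 0.17, adjusted p = 0.123). The other identifier of *mmp13a* was at 228.68 and 292.11 against 177.15 and 295.29 FPKM, and then at 177.09 and 69.50 against 414.56 and 150.86 FPKM, so that its groups overlapped at both stages. *adam8a*, an ADAM of leukocytes, was at 18.39 and 20.66 against 10.94 and 15.38 FPKM, and then at 12.55 and 8.21 against 18.66 and 14.80 FPKM.

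The interaction of genotype and stage tests whether the mutant effect differs between 2 and 2.5 dpf. limma called none of the 33 members and 0.0% of 16703 genes. With an unadjusted p under 0.05 there were 7 members, 21.2%, and 902 genes, 5.4%. The largest were *mmp13a* (ENSDARG00000114451) with a difference of 1.73 on the log2 scale (SE 0.33, unadjusted p = 0.000802, adjusted p = 0.793) and *mmp9* with 1.58 (SE 0.31, unadjusted p = 0.000946, adjusted p = 0.793). *adam8a* followed with 1.21 and *mmp25b* with 0.83, and *mmp11b* had 0.78. *mmp15b* and *adam10b* had differences of −0.81 and −0.65. Mutant libraries wholly below controls at 2 dpf and wholly above them at 2.5 dpf were found in 5 of 33 members, 15.2%, and in 0.748% of all genes. These were *mmp9*, *mmp13a* (ENSDARG00000114451), *adam8a*, *mmp25b*, and *adam19b*.

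Some neutrophil genes had the same order, but the leukocyte markers as a list did not. *mpx*, the myeloperoxidase of neutrophils, was at 106.57 and 134.22 FPKM in controls and at 64.64 and 99.11 FPKM in mutants at 2 dpf, and at 31.27 and 30.86 against 50.31 and 48.15 FPKM at 2.5 dpf. It thus had the order of *mmp13a* (ENSDARG00000114451), as did *npsn*, an astacin protease of neutrophils, and so 2 of the 12 leukocyte markers. Of the others, 5 were below controls at 2 dpf and overlapped at 2.5 dpf, and the macrophage genes *mpeg1.1* and *cxcr3.2* were below at both stages. The mutant effect at 2.5 dpf less that at 2 dpf was 1.54 for *npsn*, 1.24 for *lect2l*, and 1.22 for both *lyz* and *mpx*. Their unadjusted p with limma ran from 0.00472 to 0.00703. The difference was 0.92 for *nccrp1*, 0.73 for *coro1a*, 0.46 for *lcp1*, 0.12 for *ptprc*, and −0.22 to −0.06 for *spi1b*, *cxcr3.2*, *mpeg1.1*, and *mfap4*. None of the 12 was called, with adjusted p of 0.793 or more. The ratio of *mmp13a* (ENSDARG00000114451) to *mpx* was 1.31 and 1.32 in controls of 2 dpf and 1.24 in both mutants there. At 2.5 dpf it was 1.26 and 1.1 in controls and 1.61 and 1.55 in mutants. The ratio of *mmp9* to *mpx* was 0.409 to 0.607 in the 4 controls, 0.425 and 0.690 in mutants of 2 dpf, and 0.815 to 0.908 in mutants of 2.5 dpf. The ratio of *adam8a* to *mpx* was 0.154 to 0.173 at 2 dpf and 0.266 to 0.401 at 2.5 dpf, with genotypes overlapping at both stages. The ratio of *mmp25b* to *mpx* overlapped at 2.5 dpf, at 0.183 and 0.162 in controls against 0.194 and 0.126 in mutants. That of *adam19b* was lower in mutants there, at 0.0742 and 0.0732 in controls against 0.0491 and 0.0521. At 2 dpf both overlapped. Against *coro1a*, which encodes an actin-binding protein of all leukocytes, *mmp13a* (ENSDARG00000114451), *mmp9*, and *adam8a* were higher in mutants at 2.5 dpf. *mmp25b* and *adam19b* were not set against *coro1a*. The ratio there was 0.155 and 0.199 against 0.340 and 0.470 for *mmp13a* (ENSDARG00000114451), 0.0744 and 0.0739 against 0.191 and 0.247 for *mmp9*, and 0.0492 and 0.0480 against 0.0781 and 0.0931 for *adam8a*. The overlap of *adam8a* thus holds for *mpx* and not for *coro1a*. At 2 dpf the ratio to *coro1a* was also higher in mutants for *mmp9*, at 0.101 and 0.121 against 0.228 and 0.13. It was likewise higher for *adam8a*, at 0.0418 and 0.0456 against 0.0561 and 0.0475. For *mmp13a* (ENSDARG00000114451) it overlapped at 2 dpf, at 0.317 and 0.392 against 0.409 and 0.38. These ratios were chosen after the values had been seen, and the part of leukocytes in the results was not tested.

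**Figure D3:**
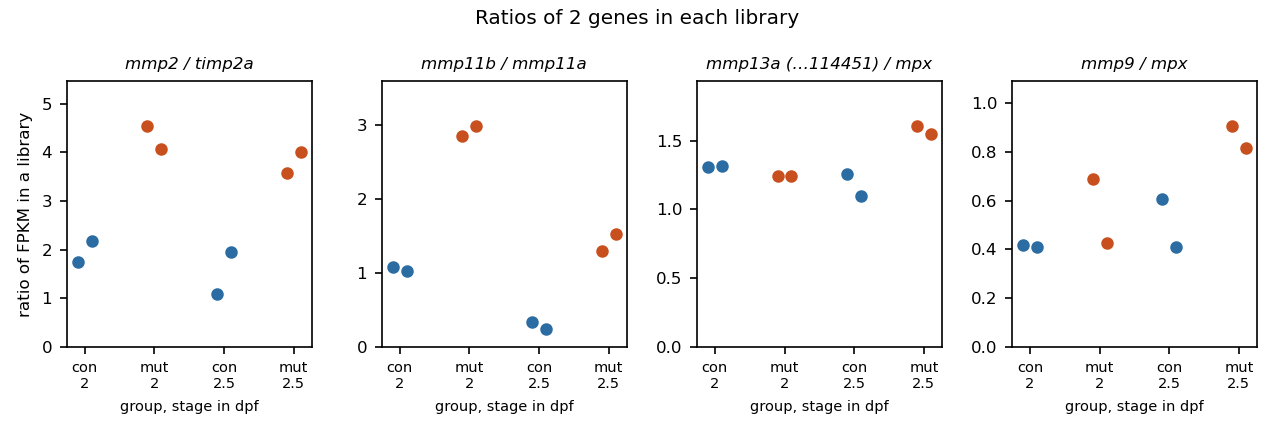
Ratio of the FPKM of 2 genes in each library, for control (con, blue) and mutant (mut, orange) cells at 2 and 2.5 dpf, each axis starting at 0. The 4 mutant libraries lie above the 4 controls for *mmp2* to *timp2a* (3.57 to 4.55 against 1.08 to 2.18), and *mmp13a* (ENSDARG00000114451) to *mpx* is higher in mutants (1.55 and 1.61) than in controls (1.1 and 1.26) at 2.5 dpf only.

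The membrane-type MMPs are anchored to the cell surface, and 4 of 10 were tested at 2 dpf and 6 at 2.5 dpf. *mmp15b*, which encodes MT2-MMP, was the member furthest below controls at 2.5 dpf. It was at 8.07 and 13.88 FPKM in controls and at 11.04 and 11.06 FPKM in mutants at 2 dpf, and at 24.41 and 27.82 against 15.85 and 14.22 FPKM at 2.5 dpf. The groups overlapped at 2 dpf and were apart at 2.5 dpf, with a log2 fold change of −0.76 that did not pass the threshold (SE 0.18, adjusted p = 0.221). At 2.5 dpf 7 of 8 cartilage markers and 5 of 7 retina markers were also wholly lower in mutants. They summed to 151.30 and 350.96 against 87.91 and 109.33 FPKM and to 126.42 and 150.86 against 11.78 and 11.77 FPKM. At 2 dpf 5 of 8 and 5 of 7 of these markers were wholly lower. The sums there were 82.58 and 145.75 against 81.82 and 76.9 FPKM for cartilage. For retina they were 119.61 and 62.71 against 4.25 and 7.97 FPKM. The part of these markers in the value of *mmp15b* was not tested. *mmp25b*, which encodes the leukocyte enzyme MT6-MMP, was at 6.50 and 5.88 against 4.23 and 4.90 FPKM at 2 dpf and at 5.72 and 5.01 against 9.77 and 6.09 FPKM at 2.5 dpf.

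Of the 15 ADAMs, 12 were tested at 2 dpf and 15 at 2.5 dpf, and none was called in a comparison of genotypes. *adam10b*, one of the genes for ADAM10, the protease that makes the first regulated cut in Notch receptors, was at 8.40 and 7.23 FPKM in controls and at 12.68 and 12.39 FPKM in mutants at 2 dpf. At 2.5 dpf it was at 13.62 and 15.68 against 13.97 and 14.67 FPKM. The genotypes were apart at 2 dpf (log2 0.62, SE 0.17, adjusted p = 0.102) and overlapped at 2.5 dpf (log2 −0.03, SE 0.18, adjusted p = 0.966). *adam10a* was at 4.03 and 4.18 against 3.79 and 5.12 FPKM and then at 5.90 and 5.97 against 5.08 and 5.56 FPKM.

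The genes for ADAM17, which releases tumor necrosis factor and ligands of the epidermal growth factor receptor, were wholly higher in mutants at each stage. *adam17a* was at 0.72 and 0.87 against 1.13 and 0.91 FPKM, and then at 2.03 and 1.86 against 2.68 and 2.82 FPKM (log2 0.26 over both stages, SE 0.11, adjusted p = 0.165). Its log2 fold change at 2 dpf was 0.17 (SE 0.15, adjusted p = 0.528 with limma), beside a median of 0.18 for all genes. *adam17b* was at 0.43 and 0.31 against 0.62 and 0.54 FPKM, and then at 1.1 and 1.05 against 1.15 and 1.43 FPKM (log2 0.17, SE 0.10, adjusted p = 0.297). In all, 8 of 33 members were wholly higher in mutants at each stage, 24.2% against 17.4% of all genes, namely *mmp2*, *mmp11b*, *mmp14a*, *mmp14b*, *adam17a*, *adam17b*, *adamts10*, and *adamts15a*. At 2 dpf *adam17b* and *adamts10* averaged 0.475 and 0.355 FPKM, under the limit of 0.5 FPKM, and were not tested at that stage alone. None of the 33 was wholly lower at each stage, where 5.21% of all genes were.

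The ADAMs without catalytic activity, *adam11*, *adam22*, and *adam23a*, are neuronal surface proteins in mammals that bind LGI proteins. *adam22* was at 1.28 and 0.60 FPKM in controls and at 0.92 and 1.06 FPKM in mutants at 2 dpf, and at 2.68 and 2.91 against 2.52 and 1.57 FPKM at 2.5 dpf (log2 −0.33, SE 0.23, adjusted p = 0.63). The 3 genes had log2 fold changes of 0.05 to 0.30 at 2 dpf and of −0.33 to −0.16 at 2.5 dpf, none with an unadjusted p under 0.05. *adam28*, an ADAM of lymphocytes in mammals, was at 1.66 and 1.81 against 0.99 and 1.14 FPKM at 2 dpf (log2 −0.41, SE 0.16, adjusted p = 0.181) and overlapped at 2.5 dpf.

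The remaining expressed members lay low and none was called between genotypes. Among the ADAMs, *adam19a* and *adam19b*, the genes for meltrin-beta, differed in course: *adam19b* was at 3.34 and 4.11 FPKM in controls and at 2.59 and 2.93 FPKM in mutants at 2 dpf and at 2.32 and 2.26 against 2.47 and 2.51 FPKM at 2.5 dpf, while *adam19a* overlapped at both stages within 1.15 to 2.81 FPKM. *adam8b* was at 0.87 and 0.63 against 1.16 and 0.87 FPKM, and then at 0.72 and 0.96 against 1.40 and 1.52 FPKM. *adam9* and *adam12* overlapped at 2.5 dpf. *mmp28*, which encodes epilysin, overlapped at 2 dpf within 0.34 to 0.67 FPKM and was at 0.78 and 1.07 against 0.32 and 0.69 FPKM at 2.5 dpf. The membrane-type genes *mmp16b* and *mmp17b* reached the limit at 2.5 dpf only, with *mmp16b* at 0.72 and 0.87 against 0.41 and 0.51 FPKM there. At the limit itself, *adam15* with 0.54 FPKM at 2.5 dpf was just inside and *adamts5* with 0.45 FPKM just outside. Of the 24 members under it, *mmp13b*, *mmp20a*, *mmp20b*, *mmp21*, and *mmp30* stayed at or below 0.29 FPKM in every library, and none of the 24 was listed at 0 in all libraries.

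**Figure D4:**
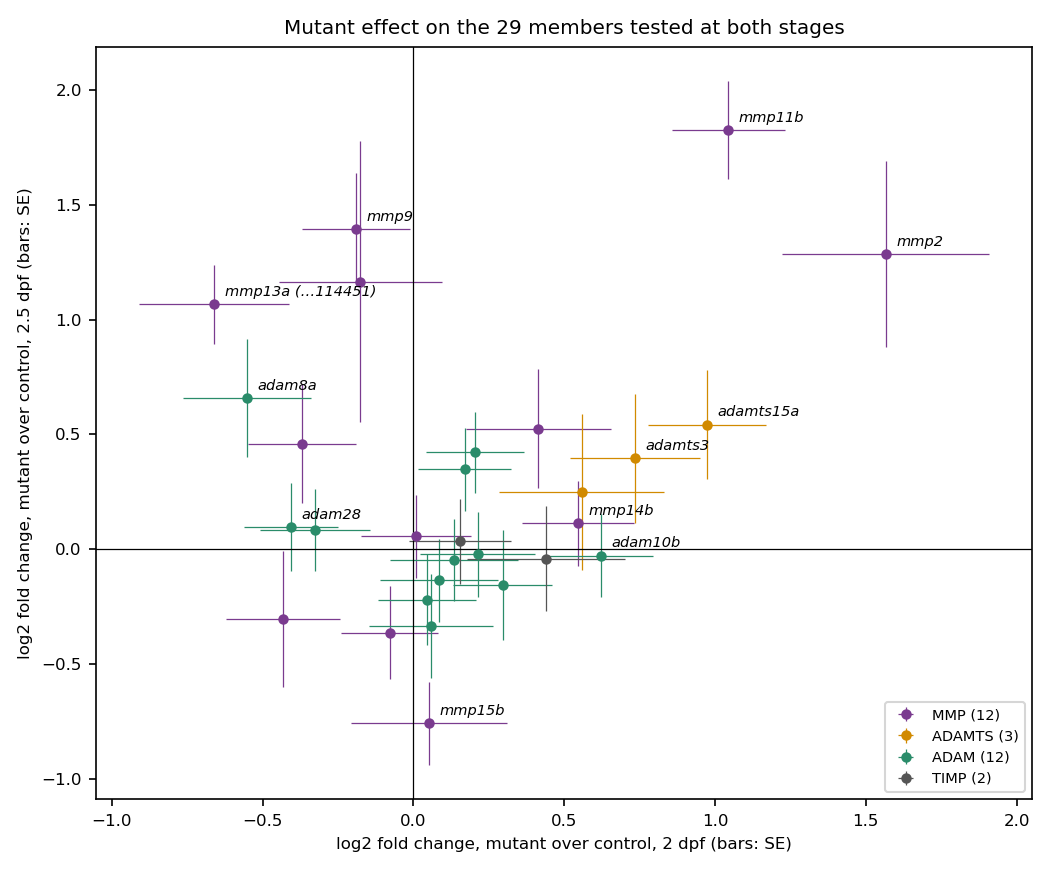
Log2 fold change of mutant over control at 2 dpf (horizontal axis) and at 2.5 dpf (vertical axis) for the 29 genes tested at both stages, colored by class, with bars of 1 SE. *mmp11b* (1.04 and 1.82) and *mmp2* (1.57 and 1.28) stand apart at the upper right, *mmp13a* (ENSDARG00000114451) and *adam8a* at the upper left, and *mmp15b* at the bottom.

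At 2 dpf the log2 fold changes of the 29 members had a median of 0.14, beside 0.18 for all genes, and ran from −0.66 to 1.57. Their groups did not overlap in 19 of 29 members, 65.5%, and in 56.9% of all genes. At 2.5 dpf the median of 37 members was 0.09, beside 0.02 for all genes, with a range of −0.76 to 1.82, and 22 of 37 did not overlap, 59.5% against 43.5%. At 2 dpf 20 of 29 members and 71.9% of all genes had a fold change above 0, but of the members only 14 after median-ratio rescaling and 13 after quantile normalization, so no direction is given for the families as a whole.

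Between 2 and 2.5 dpf, control cells changed more of these genes than mutant cells did by count. In controls 12 of 33 members passed the threshold, 36.4% against 21.5% of 16321 genes, with 10 higher and 2 lower, where 19.1% and 2.48% of all genes were higher and lower. In mutants 1 of 34 did, 2.94% against 2.8% of 16875 genes. Whether the stages differ more in controls was tested by the interaction above, which called no member. All genes had a median change of 0.44 in controls and of 0.25 in mutants. Once the libraries were rescaled by median ratios, limma called 0 members higher and 4 lower in controls (33 tested, 11 with an unadjusted p under 0.05), and after quantile normalization 0 higher and 2 lower. Over all genes 3112 were higher and 405 lower in controls, against 350 and 640 after median-ratio rescaling. The higher calls therefore depend on the scaling of the libraries, whereas the lower calls of *mmp13a* (ENSDARG00000114451) and *mmp9* were kept under both.

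*mmp13a* (ENSDARG00000114451) fell in controls by 2.07 on the log2 scale (SE 0.20, adjusted p = 0.0151) and *mmp9* fell by 1.62 (SE 0.25, adjusted p = 0.021). In mutants the values were −0.35 (SE 0.23, adjusted p = 0.371) and −0.03 (SE 0.16, adjusted p = 0.911). *mpx* fell alongside in controls, by 1.91 (SE 0.19, adjusted p = 0.0151), and was at −0.69 in mutants (SE 0.23, adjusted p = 0.132). In controls 7 of the 12 leukocyte markers were wholly lower at 2.5 than at 2 dpf, and *mpeg1.1* and *cxcr3.2* were wholly higher. Both calls were lost when either control library of 2 dpf was left out, fits in which no gene was called.

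The member with the largest rise in controls was *mmp11a*, at 1.41 (SE 0.21, adjusted p = 0.0204), and it was also the member called in mutants, at 1.46 (SE 0.15, adjusted p = 0.0379). After rescaling its change was 0.96 in controls (adjusted p = 0.0585) and 1.18 in mutants (adjusted p = 0.0547). *mmp11b* had a value of 0.03 in controls (SE 0.22, adjusted p = 0.914) and 0.81 in mutants (SE 0.17, adjusted p = 0.0612). The other members called higher in controls were *adamts3* at 1.38, *mmp15b* at 1.22, *adamts17* at 1.04, *adam22* at 0.99, *adamts15a* at 0.87, *mmp14b* at 0.86, *adam10b* at 0.83, *adam17a* at 0.71, and *adam17b* at 0.60. The same 9 genes had values between 0.18 and 1.04 in mutants. After median-ratio rescaling all 9 kept a value above 0 in controls, from 0.25 to 0.93.

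**Figure D5:**
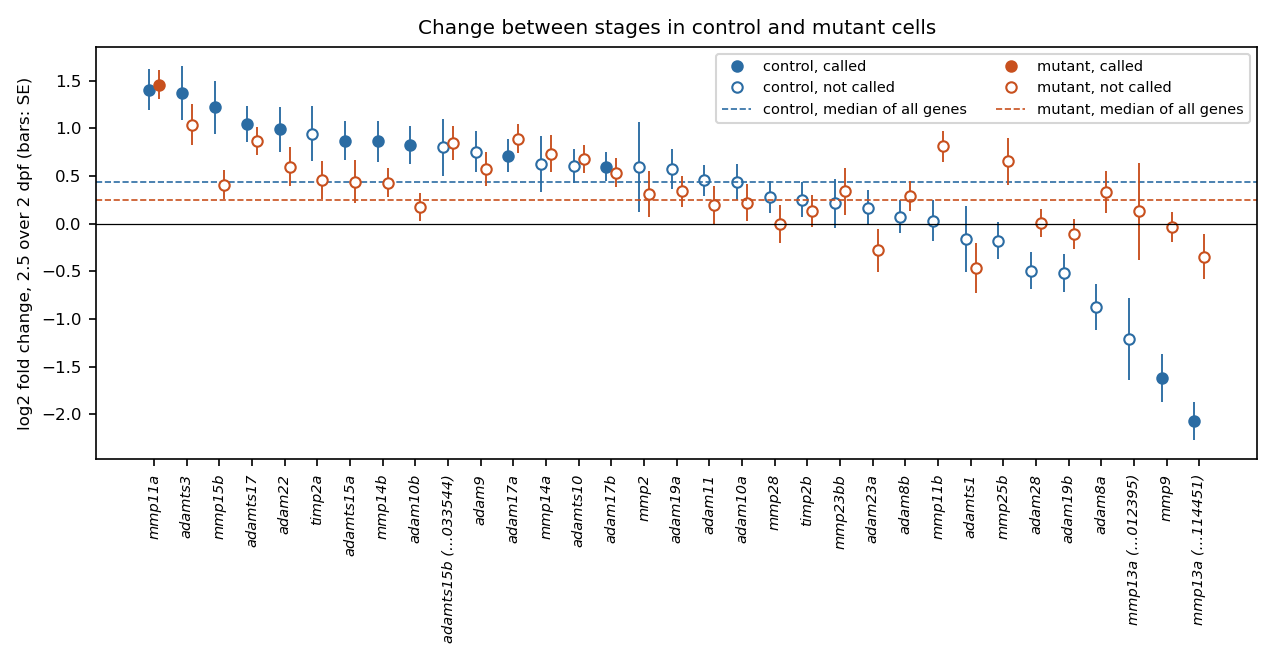
Log2 fold change from 2 to 2.5 dpf for the 33 genes tested in controls (blue) and, where tested, in mutants (orange), with bars of 1 SE, filled points for genes called by limma and dashed lines for the median of all genes (0.44 and 0.25). *mmp13a* (ENSDARG00000114451) and *mmp9* lie lowest in controls, at −2.07 and −1.62, and mutants lie near 0 there.

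Genes that act with these proteases, and further zinc proteases outside their families, were read from a list of 75 names. Over both stages 44 of their identifiers were tested and 6 were called, 13.6% against 9.01% of all genes. The nidogens of the basement membrane, which MMPs and ADAMTS1 can cut, were higher in mutants. *nid1b* was at 1.40 and 2.48 against 4.99 and 4.76 FPKM at 2 dpf and at 3.47 and 5.70 against 6.75 and 8.87 FPKM at 2.5 dpf (log2 0.85, SE 0.19, adjusted p = 0.0266). *nid1a* had 0.52 (SE 0.11, adjusted p = 0.0222) and *nid2a* 0.71 (SE 0.18, adjusted p = 0.042). The proteoglycan gene *bcan* (brevican), a substrate of ADAMTS proteases, was lower, at 0.83 and 0.98 against 0.34 and 0.46 FPKM and then at 4.14 and 3.82 against 1.39 and 0.94 FPKM (log2 −0.83, SE 0.17, adjusted p = 0.0202). The calls of *nid1a*, *nid1b*, and *nid2a* were lost without either mutant library of 2 dpf or without control replicate 1 of either stage (adjusted p from 0.0519 to 0.125). Those of *nid1a* and *nid2a* were also lost without control replicate 2 of 2 dpf. Those of *nid1b* and *nid2a* were lost without mutant replicate 2 of 2.5 dpf, and that of *nid2a* also without mutant replicate 1 of 2.5 dpf. The call of *nid2a* held in 5 of 15 alternatives. That of *bcan* was lost without mutant replicate 1 of 2 dpf or control replicate 1 of 2.5 dpf (adjusted p of 0.0507 and 0.0511).

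*tspan10*, one of the tetraspanins that carry ADAM10 through the cell, was at 1.04 and 1.17 against 2.56 and 3.09 FPKM at 2 dpf and at 0.82 and 1.62 against 2.46 and 2.06 FPKM at 2.5 dpf (log2 0.72, SE 0.15, adjusted p = 0.0203), a call lost without any 1 library of 2 dpf or without control replicate 1 of 2.5 dpf (adjusted p from 0.0517 to 0.0731). *spock2*, which encodes a proteoglycan of the testican family, was lower by a narrow margin, at 3.38 and 2.85 against 2.29 and 2.50 FPKM and then at 4.18 and 3.95 against 1.61 and 2.03 FPKM (log2 −0.56, SE 0.15, adjusted p = 0.0496). That call held in only 4 of 15 alternatives (adjusted p from 0.0155 to 0.119). At 2 dpf the zinc endopeptidase gene *phex* was the only 1 of 42 called, 2.38% against 3.52% of all genes (log2 0.97, SE 0.17, adjusted p = 0.0389), with 1.56 and 1.70 against 3.99 and 4.31 FPKM, and it too was lost with any library left out. limma called none of the 46 tested at 2.5 dpf, where 5 of them, and 12.2% of all genes, had an unadjusted p under 0.05 and 0.0% of all genes were called.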

How the data were processed

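The authors sorted *sox10*:kikGR+ cells by flow cytometry with exclusion of dead cells, amplified cDNA from oligo(dT) priming, and sequenced fragmented libraries in paired ends. They aligned reads to GRCz11 with HISAT and assembled and quantified transcripts with StringTie. Versions are not given in the sources used here. The deposited values are FPKM per gene, in 1 table per stage, and 0 columns of single libraries were left unused. Sums of FPKM ran from 609836 to 697012 per library. The low values show no steps of whole reads, so the depth behind a value is unknown.

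FPKM was tested as log2(FPKM + 1) with limma 3.58.1 in R 4.3.3 (trended moderated variances, two-sided, Benjamini-Hochberg adjustment over all genes that averaged 0.5 FPKM or more in the libraries compared). Genotypes were compared within each stage with the 4 libraries of that stage and over both stages with all 8 and a stage term. Stages were compared within each genotype, and the interaction was fitted over all 8. The scripts were tested on simulated data. The members, the related genes, and the marker lists were chosen with earlier results of these data known. Library values were given for members called, for those with an unadjusted p under 0.05, a log2 change of at least 1 in size and no overlap, for the 3 highest of each class, and for the largest rise and fall of each class. Other members shown were chosen after their values were seen. The alternatives tried were fits without a filter or with one of 2 FPKM, a pseudocount of 0.1, median-ratio rescaling, quantile normalization, a single fit of all 8 libraries, untrended variances, a replicate block, and leaving out each library. Symbols were checked against a list of gene names, in which 60 of the 61 identifiers had an entry.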

Additional observations from a re-analysis of the deposited data

Results flagged for a closer look

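For 5 genes every mutant library lay below every control library at 2 dpf and above every control library at 2.5 dpf. That is 15.2% of the 33 members tested and 0.748% of all genes. The mutant effect at 2.5 dpf less that at 2 dpf was 1.73 on the log2 scale for *mmp13a* (ENSDARG00000114451, SE 0.33), 1.58 for *mmp9* (SE 0.31), 1.21 for *adam8a* (SE 0.35), 0.83 for *mmp25b* (SE 0.32), and 0.41 for *adam19b* (SE 0.23). limma called none of these differences after adjustment over all 16703 genes, with adjusted p of 0.793 for the first 3 and 0.859 for the others. The unadjusted p was 0.000802, 0.000946, 0.00914, 0.0309, and 0.112 in that order. For *mmp9* the order at 2 dpf rested on 44.57 against 44.62 FPKM. The other identifier of *mmp13a*, ENSDARG00000012395, was higher in level and overlapped at both stages (difference 1.34, SE 0.79, unadjusted p = 0.128). How the reads were divided between the *mmp13a* identifiers is uncertain. The neutrophil gene *mpx* had the same order, with a difference of 1.22 (SE 0.31, unadjusted p = 0.00472, adjusted p = 0.793). So did *npsn*, with 1.54 (SE 0.42, unadjusted p = 0.00674, adjusted p = 0.793).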

How the results depend on the processing

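Of 998 values of 80 results under the alternatives, 0 changed sign against a called value, and 795 kept their direction and their side of the threshold or, for counts, stayed within 1.5 times. Among single genes 146 values lost a call and 25 gained one, and 32 counts moved by more than 1.5 times. At 2 dpf, where 1 member was called, the count was 0 without a filter, after median-ratio rescaling, and after quantile normalization, and 0 to 0 with a library left out. At 2.5 dpf, where none was called, a single fit of all 8 libraries called 2 members (*mmp11b* and *mmp9*), and the count was 0 to 0 with a library left out. Over both stages 3 to 4 members were called, and 1 to 4 with a library left out, down from 3. The count was 1 without control replicate 1, mutant replicate 1, or mutant replicate 2 of 2 dpf, or mutant replicate 2 of 2.5 dpf. Between stages in controls the count of 12 became 0 without a filter, 7 with a filter of 2 FPKM, 4 and 2 after the rescalings, 19 in the single fit, and 0 to 11 with a library left out. In mutants the count of 1 became 0 without a filter, after either rescaling, and with any library left out (0 to 0), and 5 in the single fit. No alternative called a member in the interaction. Over both stages, 1173 genes were higher and 332 lower, against 692 and 554 after median-ratio rescaling and 794 and 548 after quantile normalization. The labels give only a number to each replicate. Deviations of controls and mutants with the same number correlated at 0.144 at 2 dpf and 0.371 at 2.5 dpf, and those of the 2 stages at −0.130 in controls and −0.111 in mutants. With no shared clutch or day in the labels and 2 pairs per stage, the libraries were not treated as paired. A replicate block gave 2 members at 2 dpf (*mmp2* added), 5 at 2.5 dpf (*mmp11b*, *mmp9*, *mmp2*, and both identifiers of *mmp13a*, adjusted p from 0.00534 to 0.0189), 3 over both stages, 5 between stages in controls, 0 in mutants, and 0 in the interaction. The causes of these shifts were not tested. The depth behind the values is unknown, and with 2 libraries per group an exact permutation test of 2 against 2 cannot go below 0.333.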

Other observations

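Some identifiers of the same families carry names in capitals or clone names and were not among the 61. *MMP23B*, a membrane-anchored MMP, was at 2.02 and 1.98 FPKM in controls and at 3.05 and 4.12 FPKM in mutants at 2 dpf, and at 4.11 and 3.45 against 4.26 and 4.98 FPKM at 2.5 dpf, wholly higher in mutants at both stages without passing the threshold (log2 0.42, SE 0.14, adjusted p = 0.1 with limma over both stages). Its relative *mmp23bb*, which is among the 61, was at 2.04 and 1.49 against 1.25 and 0.85 FPKM and then at 1.64 and 2.85 against 1.11 and 2.16 FPKM. An identifier named ADAM12 (1 of many) reached 0.17 to 0.96 FPKM at 2 dpf and 0.67 to 1.75 FPKM at 2.5 dpf, and *ADAMTS7* at most 0.47 FPKM. CABZ01029422.1, a clone name, was also wholly higher in mutants at both stages without passing the threshold. It was at 1.88 and 2.14 against 3.11 and 3.03 FPKM, and then at 4.17 and 4.34 against 5.79 and 4.6 FPKM. Its log2 fold change over both stages was 0.33 (SE 0.12, adjusted p = 0.118 with limma).

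The related genes, further zinc proteases among them, were also counted by list. Over both stages, 4 of 10 substrates tested and 1 of 10 partners of ADAM10 and ADAM17 were called, beside 9.01% of all genes. Of 4 genes listed as other inhibitors 1 was called, the testican gene *spock2*. It was lower in mutants, its call held in only 4 of 15 alternatives, and inhibition by its product was not tested. None was called of 5 astacin proteases, 5 further zinc endopeptidases, 7 proprotein convertases and plasminogen activators, 2 genes for induction and docking, and 1 ADAMTS-like gene. With an unadjusted p under 0.05 these last lists held 0, 2, 1, 1, and 0 genes in that order, beside 25.7% of all genes.

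Markers of other cells in the sort also differed between libraries. The sum of the lens markers was 222.21 and 172.94 FPKM in controls and 15.97 and 50.55 FPKM in mutants at 2 dpf, and overlapped at 2.5 dpf. The red blood cell markers summed to 26430.53 and 17236.74 against 6417.55 and 8345.48 FPKM at 2 dpf and overlapped at 2.5 dpf, between 3287.08 and 10512.27 FPKM. The neural crest markers summed to 314.46 and 479.84 against 491.73 and 533.27 FPKM at 2 dpf and overlapped at 2.5 dpf. Skin markers summed to 292.00 to 836.22 FPKM, muscle markers to 32.99 to 226.97 FPKM, and neuronal markers to 189.60 to 524.71 FPKM over the 8 libraries. The part of these cells in the values of the metalloproteases was not tested.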
